A study of Mus musculus with 18 samples.

Results

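The genes described here encode the nuclear subunits of the 5 oxidative phosphorylation complexes, chosen by symbol: Nduf genes of complex I, Sdh genes of complex II, Uqcr genes of complex III, Cox4 to Cox8 genes of complex IV and Atp5 genes of complex V. Of 19505 genes tested, 84 met this rule, with 37 in complex I, 4 in complex II, 8 in complex III, 18 in complex IV and 17 in complex V, and each had 1 probe set. They were measured in hematopoietic cells of C57Bl/6J mice, in which adult bone marrow (BM) of animals 3 to 12 months old was set against fetal liver (FL) of E13.5 embryos. Stem cells of long-term (LT-HSC) and short-term (ST-HSC) repopulating activity and multipotent progenitors (MPP) had been sorted from each source, by Cd150 and Cd48 within the LSK gate (no lineage markers, Sca-1 and Kit present). Each of the 6 groups held 3 Affymetrix Clariom S arrays, lettered a, b and c. No transgene or treatment is named in the titles, source names or stages, and separate animals are not stated for the arrays. The p-values thus cover the spread among these arrays alone, which may be technical.

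Complexes I to IV form the respiratory chain of the inner mitochondrial membrane. Complexes I and II pass electrons from NADH and succinate to coenzyme Q, complex III passes them on to cytochrome c, and complex IV hands them to oxygen. Complexes I, III and IV pump protons, and complex V, the ATP synthase, lets protons return and makes ATP. Complexes I, III, IV and V also hold subunits encoded by mitochondrial DNA, which were not analysed here. Hematopoietic stem cells are known to rely on glycolysis more than their progeny do, and fetal stem cells divide more than adult ones.

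The arrays correlated within groups at 0.960 to 0.994 over genes, with array medians of 7.68 to 7.78 (log2). Of the 18 arrays, 4 had a narrow spread of values, with an interquartile range of 2.61 to 2.71 against 2.98 to 3.18 in the others. They were BM LT-HSC c, BM ST-HSC b and c, and FL LT-HSC b. The subunit genes have high levels: 72 of 84 had a mean above 9.30, as had 4876 of all genes, which are named the bright genes below. In the 4 narrow arrays the bright genes read low, with a median deviation of -0.24 to -0.05 from their own means, and the genes in the lowest 25% by mean level read high, at 0.11 to 0.16. The main counts are therefore given beside those of the bright genes and again without these 4 arrays. Free-text descriptions of the arrays mention transplanted marrow, with sgEzh2 written for 4 FL arrays (LT-HSC a, ST-HSC a, MPP a and MPP b) and sgLuc for the others, which conflicts with the titles, source names and stages used here. Of the sort markers, Kit was at 12.81 or above in every array. Slamf1, which encodes Cd150, was at 9.20 to 9.95 in BM LT-HSC and 7.16 to 7.42 in BM MPP, and at 9.12 to 9.47 in FL LT-HSC and 6.43 to 6.86 in FL MPP. Cd48 was at 12.19 to 12.35 in BM MPP and at 12.35 in all FL MPP arrays, and at 9.57 to 10.27 in LT-HSC and ST-HSC except for BM LT-HSC c, with 11.40.

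Averaged over the 3 populations, BM cells had lower levels of 29 of the 84 subunit genes than FL cells and higher levels of none, at a Benjamini-Hochberg adjusted p under 0.05 in limma. Over all genes 25.1% were called in either direction, 15.9% lower and 9.26% higher. The lower share was 34.5% of the subunit genes, against 31.7% of the bright genes, so the number of calls was near that of other genes of high level. The sizes were small and ran one way: 78 of 84 differences were below 0, with a median log2 difference of -0.16, against -0.12 for the bright genes, of which 68.5% were below 0, and -0.01 for all genes. Here and below, less RNA of these genes relative to other genes within the cells and a change in which cells made up the sorted population cannot be told apart.

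**Figure D1:**
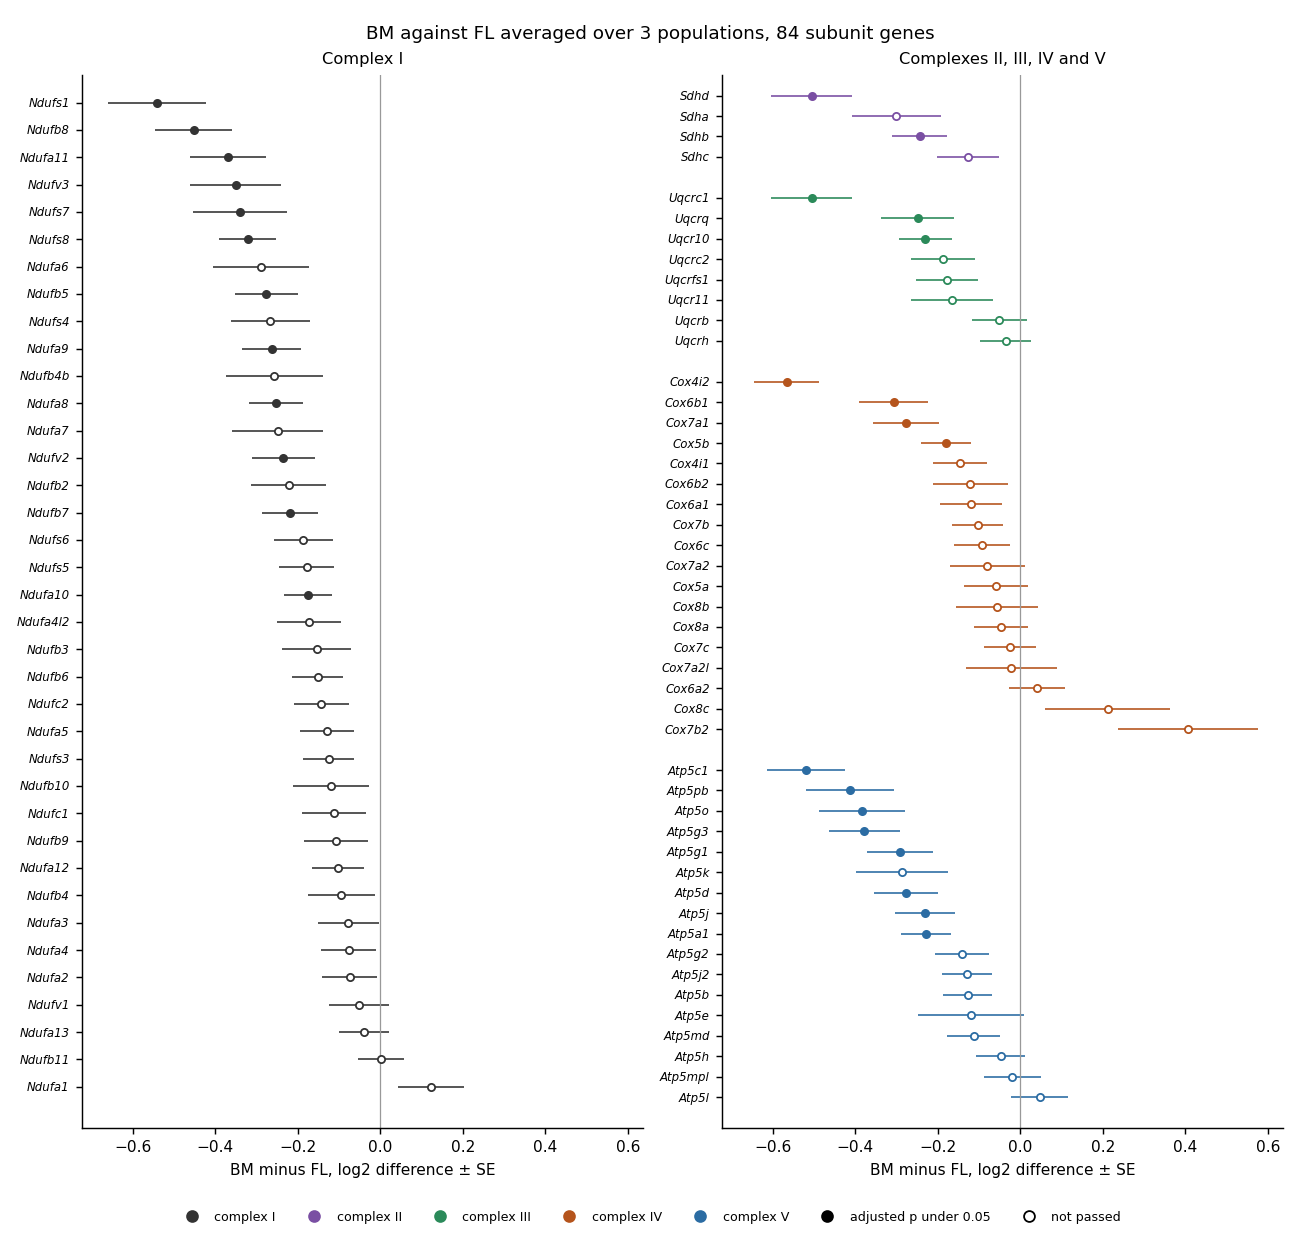
Log2 difference of BM minus FL averaged over 3 populations (horizontal axis, bars are the SE of the fit) for each of the 84 subunit genes, in rows by complex; filled points have an adjusted p under 0.05. All 29 filled points lie left of 0, and Ndufs1, Sdhd, Uqcrc1, Cox4i2 and Atp5c1 lie farthest left in their complexes.

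Ordered by complex, 12 of 37 genes of complex I fell in BM (median of the complex -0.17), 2 of 4 of complex II (-0.27), 3 of 8 of complex III (-0.18), 4 of 18 of complex IV (-0.09) and 8 of 17 of complex V (-0.23). Within complex I, 4 of 6 measured nuclear core subunits, which carry the electron path, fell (Ndufs1, Ndufs7, Ndufs8 and Ndufv2), with a median of -0.28, and 8 of 31 accessory subunits with a median of -0.17. The accessory subunits counted here include Ndufa4 and Ndufa4l2, which were placed by symbol. Within the ATP synthase, 3 of 5 subunits of the catalytic F1 head fell (Atp5a1, Atp5c1 and Atp5d), with a median of -0.23, and 5 of the other 12 (Atp5g1, Atp5g3, Atp5j, Atp5o and Atp5pb), with a median of -0.19. Differences between complexes were not tested.

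Each complex had 1 leading gene whose fall passed in all 32 alternative fits of this average, and these 5 genes, singled out after their values were seen, are given in full. Ndufs1, the iron-sulfur subunit of the NADH-oxidising arm of complex I, was at 8.37, 8.02 and 8.44 in BM LT-HSC, against 8.62, 8.49 and 8.87 in FL LT-HSC. It was at 8.69, 7.90 and 7.83 in BM ST-HSC, against 8.56, 9.10 and 8.83 in FL ST-HSC. It was at 8.54, 8.80 and 8.61 in BM MPP, against 9.44, 9.08 and 9.07 in FL MPP. All BM arrays lay below all FL arrays in LT-HSC and MPP, and the ST-HSC arrays overlapped through BM array a. The average difference was -0.54 ± 0.12 (log2 ± SE, 1.46-fold lower in BM, limma adjusted p = 0.00245).

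Sdhd, which anchors complex II in the membrane and helps to bind coenzyme Q, was at 9.61, 9.58 and 9.39 in BM LT-HSC, against 10.31, 9.89 and 9.97 in FL LT-HSC. It was at 9.92, 9.51 and 9.21 in BM ST-HSC, against 10.11, 10.33 and 9.90 in FL ST-HSC. It was at 10.01, 10.09 and 9.77 in BM MPP, against 10.41, 10.29 and 10.43 in FL MPP. The groups were apart in LT-HSC and MPP and touched in ST-HSC, where BM a lay just above FL c. Its average difference was -0.51 ± 0.10 (1.42-fold lower in BM, limma adjusted p = 0.000866).

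Uqcrc1, a core protein on the matrix side of complex III, was at 10.94, 11.06 and 10.63 in BM LT-HSC, against 11.68, 11.20 and 11.25 in FL LT-HSC. It was at 11.06, 10.56 and 10.41 in BM ST-HSC, against 11.57, 11.38 and 11.28 in FL ST-HSC. It was at 11.18, 11.11 and 11.20 in BM MPP, against 11.56, 11.43 and 11.34 in FL MPP. BM lay below FL without overlap in each population, with an average difference of -0.51 ± 0.10 (1.42-fold lower, limma adjusted p = 0.000894).

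Cox4i2, an isoform of complex IV subunit 4 known from the lung and from oxygen sensing, was at 8.44, 8.33 and 8.16 in BM LT-HSC, against 8.72, 8.58 and 8.51 in FL LT-HSC. It was at 8.04, 8.0 and 8.13 in BM ST-HSC, against 8.66, 8.32 and 8.81 in FL ST-HSC. It was at 7.95, 7.90 and 7.91 in BM MPP, against 8.58, 8.94 and 8.82 in FL MPP. BM lay below FL in each population, and the 3 BM MPP arrays lay close together. The average difference was -0.57 ± 0.08 (1.48-fold lower, limma adjusted p = 3.46e-05), and between -0.61 and -0.52 over the alternatives. The common isoform Cox4i1 differed by -0.15 ± 0.07 and did not pass (limma adjusted p = 0.115).

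Atp5c1, the gamma subunit that turns within the F1 head of the ATP synthase, was at 8.43, 8.72 and 8.13 in BM LT-HSC, against 9.01, 8.70 and 8.78 in FL LT-HSC. It was at 8.52, 8.13 and 7.99 in BM ST-HSC, against 8.86, 9.23 and 8.97 in FL ST-HSC. It was at 8.74, 9.01 and 8.77 in BM MPP, against 9.22, 9.16 and 9.21 in FL MPP. BM lay below FL in ST-HSC and MPP and overlapped in LT-HSC through BM array b. The average difference was -0.52 ± 0.09 (1.43-fold lower, limma adjusted p = 0.000517).

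**Figure D2:**
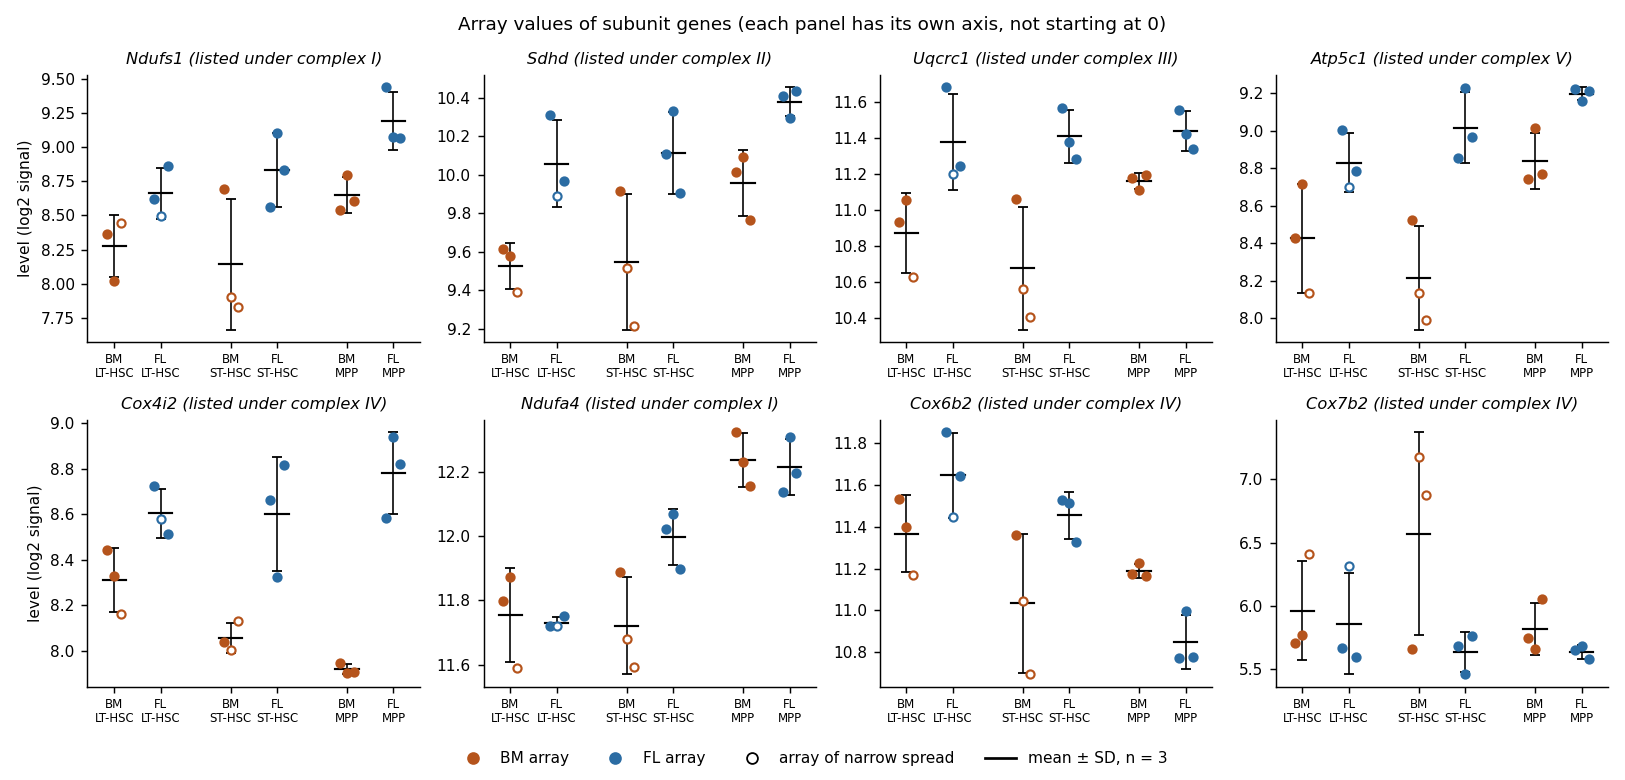
Log2 level (vertical axis, a scale of its own in each panel) of 8 subunit genes in each of the 18 arrays, with BM left of FL in each population; black lines give the mean ± SD of 3 arrays, and open points are the 4 arrays of narrow spread. In Uqcrc1 and Cox4i2 all BM points lie below all FL points of the same population, and in Cox7b2 the 4 highest points are the 4 open ones.

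In complex I, Ndufb8, an accessory subunit of the membrane arm, fell by 0.45 ± 0.09 in BM (log2 ± SE), the accessory subunit Ndufa11 by 0.37 ± 0.09, the accessory subunit Ndufv3 by 0.35 ± 0.11, and Ndufs7, a core subunit that holds the last iron-sulfur cluster before coenzyme Q, by 0.34 ± 0.11. In complex II, Sdhb, the iron-sulfur subunit, fell by 0.24 ± 0.07. Sdha, the subunit that oxidises succinate, differed by -0.30 ± 0.11 and just missed the threshold (limma adjusted p = 0.051), and the second anchor Sdhc differed by -0.13 ± 0.07. In complex III the small subunits Uqcrq and Uqcr10 fell by 0.25 ± 0.09 and 0.23 ± 0.06.

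In complex IV, Cox6b1, which faces the intermembrane space, fell by 0.31 ± 0.08, the heart and muscle isoform Cox7a1 by 0.28 ± 0.08, and Cox5b by 0.18 ± 0.06. In the ATP synthase, the peripheral stalk genes Atp5pb and Atp5o fell by 0.41 ± 0.11 and 0.38 ± 0.10. Of the 3 genes that encode the same mature subunit of the c ring, Atp5g3 fell by 0.38 ± 0.09 and Atp5g1 by 0.29 ± 0.08, while Atp5g2 differed by -0.14 ± 0.07 and did not pass (limma adjusted p = 0.128). Of the 29 falls, 21 kept their call whichever array was left out. Among those named here, Uqcrq kept it in 3 of 18 such fits, Ndufs7 and Cox5b in 7 and Ndufv3 in 12. The adjusted p of the named falls in these 2 paragraphs lay between 0.00143 (Ndufb8) and 0.0485 (Uqcrq) in limma.

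The count of 29 depended on a few arrays, and in the settings that leave them out a smaller share of the subunit genes than of the bright genes was lower in BM. Without the 4 arrays of narrow spread 13 subunit genes were called, all lower, or 15.5% against 20.8% of the bright genes and 11.7% of all genes. Without BM ST-HSC b and c 9 were called, or 10.7% against 16.3% of the bright genes. When ST-HSC was left out of the average 7 were called, or 8.33% against 13.3%, and when the FL arrays with an sgEzh2 description were left out 6, or 7.14% against 14.4%. The median difference of the subunit genes without the narrow arrays was -0.11, with 71 of 84 below 0, against -0.07 for the bright genes. It was -0.15, against -0.12, without the FL arrays with an sgEzh2 description. In settings that kept all arrays the lower share went both ways. It was 54.8% of the subunit genes against 42.1% of the bright genes with array weights, and 47.6% against 34.5% with a trend and robust estimation. It was 25% against 24.5% after repeated quantile normalization and 15.5% against 19.7% after cyclic loess.

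**Figure D3:**
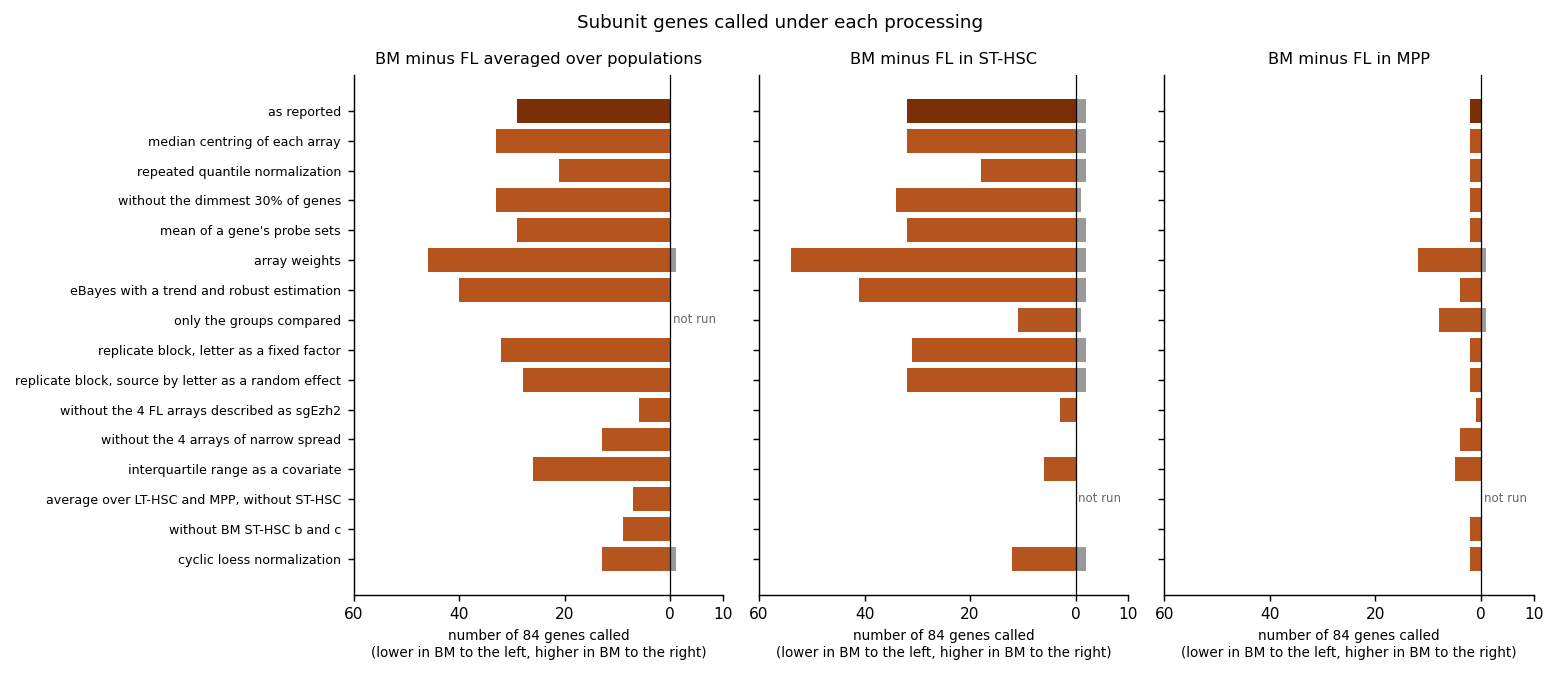
Number of the 84 subunit genes called at an adjusted p under 0.05 (horizontal axis, lower in BM to the left of 0 and higher to the right) under each processing, for the average over populations, ST-HSC and MPP. The count of the average runs from 6 to 47, and that of ST-HSC is 0 without the 4 arrays of narrow spread and without BM ST-HSC b and c.

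By population, BM and FL were compared 3 arrays against 3. In LT-HSC no subunit gene was called, against 7.66% of all genes, and 8 of the 84 had an unadjusted p under 0.05 in limma. The median difference was -0.07, with 54 of 84 below 0, against -0.11 for the bright genes. The alternatives called between 0 and 3. The 3 BM arrays lay below the 3 FL arrays in 11 subunit genes (13.1%), against 11.0% of all genes and 19.9% of the bright genes.

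In ST-HSC 32 subunit genes fell and 2 rose in BM, or 38.1% lower against 24.1% of the bright genes and 12.1% of all genes, of which 18.7% were called and 6.52% were higher. The median difference was -0.29, against -0.21 for the bright genes. Ndufa11 differed by -0.81 ± 0.16, with 9.85, 9.47 and 9.30 in BM ST-HSC against 10.42, 10.44 and 10.18 in FL ST-HSC (limma adjusted p = 0.00271). Ndufb8 differed by -0.79 ± 0.16, with 9.94, 9.49 and 9.41 in BM ST-HSC against 10.55, 10.46 and 10.21 in FL ST-HSC (limma adjusted p = 0.00307). In both genes BM array a was the nearest to FL and b and c, of narrow spread, were lower. Atp5c1, Uqcrc1 and Atp5o differed by -0.80 ± 0.16, -0.73 ± 0.17 and -0.70 ± 0.18, Sdhd and Sdhb by -0.57 ± 0.17 and -0.38 ± 0.12, and Uqcrq by -0.55 ± 0.15.

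BM ST-HSC a alone lay below all 3 FL ST-HSC arrays in 50 of the 84 genes, or 59.5% against 30.6% of all genes. BM b did so in 67, or 79.8% against 39.4% of all genes, and BM c in 73, or 86.9% against 37.5%. For single arrays such a share was not counted among the bright genes. Taken alone, BM a differed from the FL mean by a median of -0.18 over the subunit genes and -0.07 over the bright genes. BM b differed by -0.32 and -0.28, and BM c by -0.42 and -0.27. The number of calls nevertheless fell to 5 without BM ST-HSC c, 8 without BM ST-HSC b, 10 without FL ST-HSC b and 15 without FL ST-HSC a. It was 0 without the 4 narrow arrays, against 3.49% of the bright genes and 2.66% of all genes lower, where BM a stood alone and its spread was taken from the other groups. The 3 BM arrays lay below the 3 FL arrays in 42 of 84 subunit genes, against 18.8% of all genes and 35.0% of the bright genes.

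The 2 genes that rose in BM ST-HSC are isoforms known from the testis. Cox7b2 was at 5.66, 7.17 and 6.88 in BM ST-HSC, against 5.68, 5.46 and 5.76 in FL ST-HSC, a difference of 0.94 ± 0.29 (limma adjusted p = 0.0354). Cox8c was at 7.90, 8.61 and 8.73 in BM ST-HSC, against 7.63, 7.45 and 7.58 in FL ST-HSC, a difference of 0.86 ± 0.26 (limma adjusted p = 0.0318). Both were high in the arrays of narrow spread wherever these fell: Cox7b2 was at 6.41 in BM LT-HSC c and 6.32 in FL LT-HSC b, against at most 6.05 in any of the 14 others, and Cox8c at 8.58 and 8.44, against at most 7.91. Without the narrow arrays the differences were 0.02 and 0.34 and neither passed (limma adjusted p = 0.964 and 0.221).

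In MPP 2 subunit genes were called, both lower in BM, or 2.38% against 5.47% of all genes. Cox4i2 fell by 0.86 ± 0.14 (limma adjusted p = 0.000467), and Cox7a1, at 7.94, 7.98 and 8.17 in BM MPP against 8.60, 8.51 and 8.68 in FL MPP, fell by 0.56 ± 0.14 (limma adjusted p = 0.0207). Cox7a1 lost its call without BM MPP a or b or FL MPP a or c (adjusted p of 0.0739 to 0.0979), while Cox4i2 kept it in every alternative. None of these 6 arrays had a narrow spread. The 3 BM arrays lay below the 3 FL arrays in 41 subunit genes (48.8%), against 19.1% of all genes and 34.4% of the bright genes. The median difference was -0.14, with 71 of 84 below 0, against -0.05 for the bright genes.

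In 4 subunit genes (4.76%) BM lay below FL without overlap in each of the 3 populations, which is near the 4.35% of all genes. They were Cox4i2, Uqcrc1, Ndufa10, an accessory subunit of complex I, and Atp5a1, the alpha subunit of the F1 head. The average difference of Ndufa10 kept its call in 8 of the 18 fits that left out 1 array. No subunit gene lay above in each. The fits did not show that the effect of source differed between populations: the interaction F test called 0 of the 84, against 0.820% of all genes, with 12 at an unadjusted p under 0.05 (12.4% of all genes) and 19 called with array weights in limma. The contrast of MPP minus LT-HSC between the sources called 0 as well, against 0.543% of all genes, with 2 at an unadjusted p under 0.05 and 0 under every alternative in limma.

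**Figure D4:**
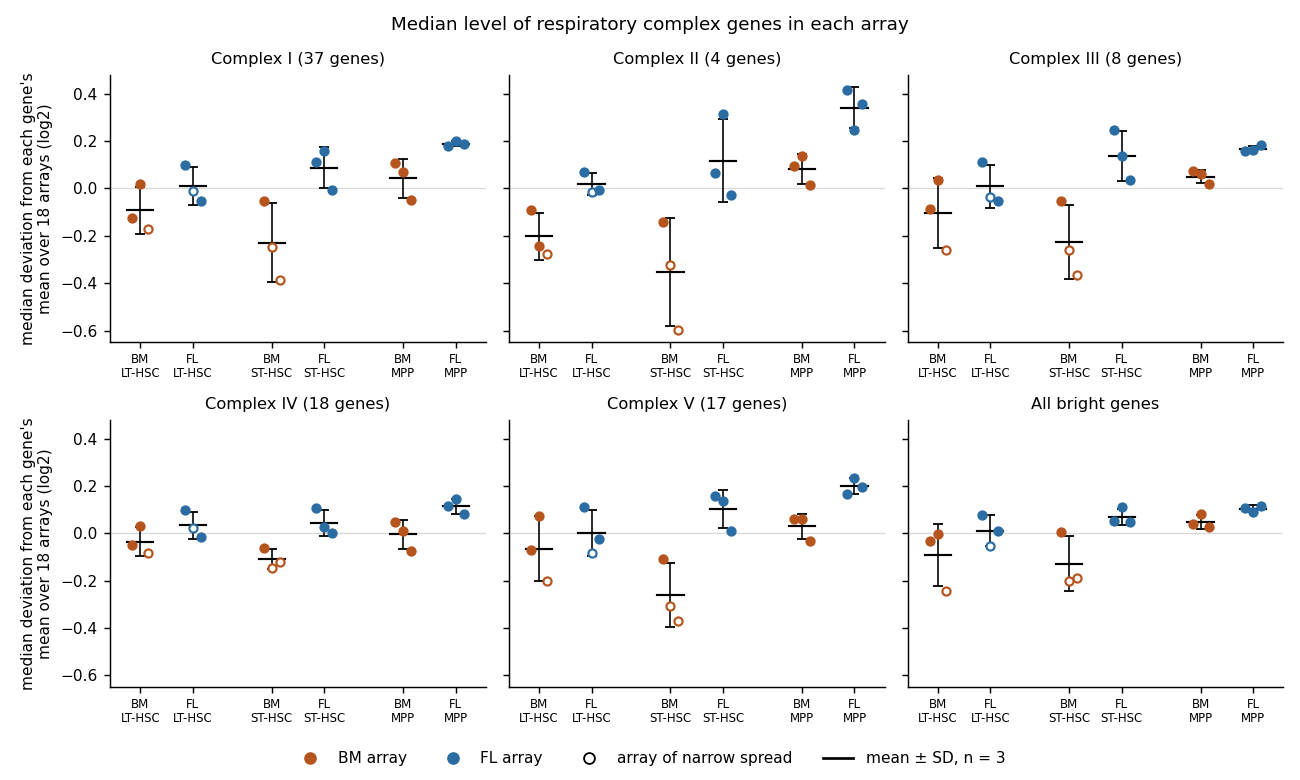
Median deviation of the genes of each complex from their own means over 18 arrays (vertical axis, log2), per array, with the bright genes for comparison; black lines give the mean ± SD of 3 arrays and open points are the 4 arrays of narrow spread. FL MPP arrays are the highest group and BM ST-HSC arrays the lowest in each complex, and the bright genes have the same highest and lowest groups.

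Over the 6 groups, the highest mean level was in FL MPP for 59 of 84 subunit genes, or 70.2% against 24.6% of all genes and 37.1% of the bright genes. The lowest was in BM ST-HSC, also for 59, against 25.4% of all genes and 41.4% of the bright genes. The median deviation of the 84 genes from their own means was -0.09, 0.02 and -0.16 in BM LT-HSC, against 0.10, -0.04 and -0.05 in FL LT-HSC. It was -0.06, -0.24 and -0.35 in BM ST-HSC, against 0.13, 0.14 and -0.00 in FL ST-HSC. It was 0.09, 0.06 and -0.04 in BM MPP, against 0.17, 0.20 and 0.18 in FL MPP. The sources thus overlapped in LT-HSC and lay apart in ST-HSC and MPP.

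Among populations of one source, few subunit genes were called. Ndufa4, listed by symbol under complex I but since assigned to complex IV, was at 11.80, 11.87 and 11.59 in BM LT-HSC, 11.89, 11.68 and 11.59 in BM ST-HSC and 12.32, 12.23 and 12.15 in BM MPP. It was at 11.72, 11.72 and 11.75 in FL LT-HSC, 12.02, 12.07 and 11.90 in FL ST-HSC and 12.14, 12.31 and 12.20 in FL MPP. In both sources the MPP arrays lay above all LT-HSC arrays. MPP minus LT-HSC was 0.48 ± 0.12 in BM (limma adjusted p = 0.0214) and 0.48 ± 0.12 in FL (0.0235), and between BM and FL Ndufa4 did not pass in any population. The call in BM was lost without BM LT-HSC c, BM MPP a or BM MPP b, and that in FL without any 1 of the 6 FL LT-HSC and MPP arrays, with differences of 0.40 to 0.52.

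Ndufa4 was the only subunit gene called between MPP and LT-HSC in BM, against 4.57% of all genes. In FL, against 3.40% of all genes, the other was Cox6b2, a complex IV isoform known from the testis. Cox6b2 was at 11.85, 11.44 and 11.64 in FL LT-HSC, 11.53, 11.51 and 11.33 in FL ST-HSC and 10.77, 11.00 and 10.78 in FL MPP, so that FL MPP lay below the other FL arrays. MPP minus LT-HSC was -0.80 ± 0.16 in FL (limma adjusted p = 0.0058) and -0.18 ± 0.16 in BM (0.637). The difference between these 2 contrasts was 0.62 ± 0.22 and did not pass (limma adjusted p = 0.404). Its direction in FL was against the median of the subunit genes, which was 0.19 for MPP minus LT-HSC in FL and 0.09 in BM. The FL call was lost in 1 alternative, when the sgEzh2-described FL arrays were left out (-0.77, limma adjusted p = 0.388).

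Between ST-HSC and LT-HSC no subunit gene was called in BM, against 1.71% of all genes, or in FL, against 0.559%. At an unadjusted p under 0.05 in limma there were 15 in BM and 4 in FL, and array weights called 33 in BM and 0 in FL. Between MPP and ST-HSC no subunit gene was called in FL, against 2.26% of all genes, with 3 at an unadjusted p under 0.05 and 2 called with array weights. In BM 11 of 84 were higher in MPP than in ST-HSC, against 4.79% of all genes higher and 6.10% called. They were led by Ndufa11 (0.69 ± 0.16), Ndufv3 (0.66 ± 0.19), Sdha (0.66 ± 0.19), Atp5c1 (0.62 ± 0.16) and Atp5o (0.62 ± 0.18) and included Uqcrq (0.53 ± 0.15) and the heart and muscle isoform Cox6a2 (0.50 ± 0.12). The median difference was 0.24, against 0.17 for the bright genes, whose share of calls is not given here. In BM ST-HSC b and c the bright genes had median deviations of -0.20 and -0.19 from their own means, against 0.01 in BM ST-HSC a. The count of 11 became 0 without BM ST-HSC b, BM MPP a or BM MPP b, 1 without BM ST-HSC c, 4 without BM MPP c, 32 without BM ST-HSC a and 19 without BM LT-HSC c. It was 6 without FL LT-HSC c or any 1 of the FL MPP arrays.

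Genes outside the complexes, in lists of mitochondrial function, were counted in the same average of BM minus FL. The counts of these lists are to be read against the 15.9% of all genes and 31.7% of the bright genes that were lower in it. No list was tested as a set. The mitochondrial ribosome, which translates the subunits encoded by mitochondrial DNA, had 61 of 76 genes lower in BM and none higher, with a median of -0.37. It was led by Mrpl15 (-0.73 ± 0.12), Mrps15 (-0.69 ± 0.11) and Mrpl3 (-0.68 ± 0.11). Without the 4 narrow arrays 39 of 76 were lower, with a median of -0.26. With all arrays its median was -0.26 in LT-HSC, -0.52 in ST-HSC and -0.32 in MPP.

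Of the assembly factors of the complexes, 16 of 48 were lower (median -0.22), led by Coa7 (-0.76 ± 0.13), a complex IV factor, and the complex I factors Tmem126b (-0.70 ± 0.13) and Ndufaf5 (-0.63 ± 0.13). Of the genes for protein import, 14 of 25 were lower (-0.23), led by Timm17a (-0.70 ± 0.11) of the inner membrane channel, Tomm40 (-0.59 ± 0.13), the outer membrane pore, and Tomm70a (-0.40 ± 0.07), an import receptor. Of the genes of cytochrome c and coenzyme Q, which carry electrons between the complexes, 6 of 18 were lower and 1 higher (-0.14). The lower ones were led by Coq7 (-0.63 ± 0.10), Coq6 (-0.60 ± 0.11) and Coq4 (-0.54 ± 0.12), which act in coenzyme Q synthesis, and the higher one was Coq8a (0.35 ± 0.11).

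Of the citric acid cycle and pyruvate entry, 9 of 19 were lower (-0.27), led by the pyruvate dehydrogenase components Dlat (-0.56 ± 0.09), Dld (-0.51 ± 0.09) and Pdhx (-0.48 ± 0.14). Of the pyruvate dehydrogenase kinases and phosphatases, only the kinase Pdk3 (-0.33 ± 0.09) of 6 was called (-0.23). Of the regulators of mitochondrial biogenesis, 4 of 19 were lower (-0.15): Polrmt (-0.56 ± 0.13), the mitochondrial RNA polymerase, Tfam (-0.55 ± 0.09), which binds and packs mitochondrial DNA, the transcriptional cofactor Hcfc1 (-0.48 ± 0.12) and Tfb1m (-0.36 ± 0.12). The growth regulator Myc was higher in BM (0.58 ± 0.11). Of the genes that maintain mitochondrial DNA, 4 of 12 were lower (-0.01), namely the helicase Twnk (-0.43 ± 0.13), Mgme1 (-0.35 ± 0.11), Rnaseh1 (-0.33 ± 0.08) and Slc25a33 (-0.29 ± 0.07), and the thymidine kinase Tk2 was higher (0.31 ± 0.08).

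Of the list of the outer membrane and mitochondrial dynamics, which also holds inner membrane genes, 4 of 15 were lower (-0.17). They were the inner membrane genes Apool (-0.66 ± 0.14), Opa1 (-0.39 ± 0.14), Chchd6 (-0.35 ± 0.10) and Immt (-0.30 ± 0.11). Of the mitochondrial antioxidant enzymes, Txn2 (-0.36 ± 0.10), Glrx5 (-0.26 ± 0.09) and Sod2 (-0.25 ± 0.07) of 7 were lower (-0.25). Of the ATP synthase inhibitor and nucleotide exchange genes, the ADP/ATP carrier Slc25a4 (-0.42 ± 0.07) of 7 was lower (-0.06). Of the tissue-restricted or alternative isoforms and their common partners, 5 of 19 were lower (-0.12): Cox4i2, Cox6b1, Cox7a1, Atp5g1 and Atp5g3. Tissue-restricted isoforms that did not pass were Cox6a2 (0.04 ± 0.07), Cox6b2 (-0.12 ± 0.09), Cox8b (-0.06 ± 0.10), Cox8c (0.21 ± 0.15), Cox7b2 (0.41 ± 0.17) and Ndufa4l2 (-0.17 ± 0.08), a paralogue of Ndufa4 listed by symbol under complex I. Common forms that did not pass were Cox6a1 (-0.12 ± 0.08), Cox7a2 (-0.08 ± 0.09), Cox7b (-0.10 ± 0.06) and Cox8a (-0.05 ± 0.07), as well as the related gene Cox7a2l (-0.02 ± 0.11).

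Without the 4 narrow arrays most of these lists had fewer calls and medians nearer 0. Lower in BM were then 13 of 48 assembly factors, with 1 higher (median -0.12), 8 of 25 genes for protein import (-0.20), 6 of 18 of cytochrome c and coenzyme Q, with 1 higher (-0.09), and 7 of 19 of the citric acid cycle and pyruvate entry (-0.19). Of the regulators of biogenesis 3 were lower and 2 higher (-0.02), of the genes of mitochondrial DNA maintenance 3 lower and 2 higher (0.04), and of the outer membrane and dynamics 1 lower and 1 higher (-0.10). The antioxidant enzymes had 1 lower (-0.19), the isoform list 3 (-0.10) and the ATP synthase inhibitor and nucleotide exchange list 1 (0.03). Among the pyruvate dehydrogenase kinases and phosphatases the call of Pdk3 was lost (-0.07).

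**Figure D5:**
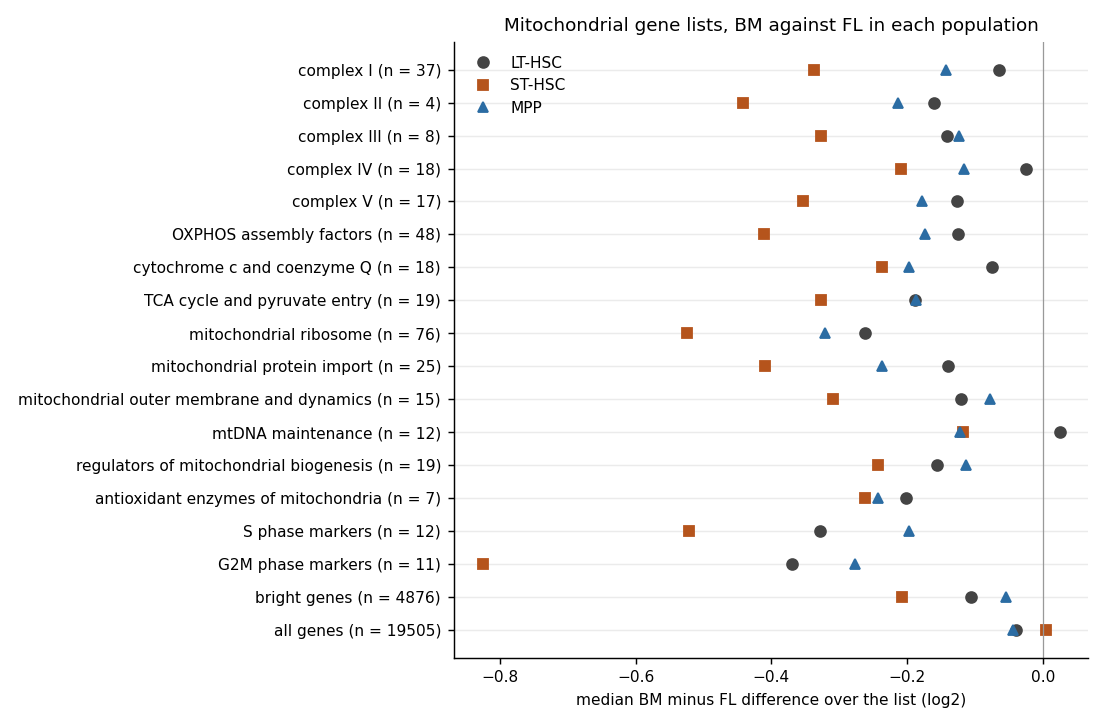
Median log2 difference of BM minus FL (horizontal axis) over each gene list, in LT-HSC (circles), ST-HSC (squares) and MPP (triangles), with the number of genes measured in brackets. Each complex lies left of 0 in each population (complex I in LT-HSC at 0.01 after repeated quantile normalization), the mitochondrial ribosome lies left of each complex of the same population, and the G2M list in ST-HSC lies farthest left of all.

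Markers of other cells and of the cell cycle moved with these groups, and their part in the results was not tested. S phase genes were lower in BM in 9 of 12 (median -0.37) and G2M phase genes in 9 of 11 (-0.46), and without the narrow arrays in 8 and 8. The mean of the G2M genes was 10.04 to 10.27 in BM LT-HSC against 10.32 to 10.64 in FL LT-HSC, without overlap, while the subunit deviations overlapped there. It was 8.90 to 9.88 in BM ST-HSC against 10.22 to 10.66 in FL ST-HSC, with the lowest values in BM ST-HSC c (8.90) and b (9.32), the arrays with the lowest subunit levels. It was 10.22 to 10.41 in BM MPP against 10.56 to 10.65 in FL MPP. Neutrophil granule genes were higher in BM in 8 of 8, with array means of 10.49 to 12.82 in BM against 6.29 to 7.69 in FL. B cell genes were higher in 6 of 7 (8.24 to 10.34 in BM against 7.23 to 8.05 in FL), macrophage genes in 5 of 7 (7.23 to 8.66 against 6.63 to 7.11) and megakaryocyte genes in 2 of 4 (8.60 to 10.91 against 8.17 to 9.06). Erythroid genes were lower in BM in 2 of 8 (7.49 to 8.43 in BM against 7.56 to 9.94 in FL), and hepatocyte genes were lower in 4 of 10 and higher in 1 (7.38 to 7.71 against 7.62 to 9.23). The FL array with the highest erythroid and hepatocyte means, LT-HSC c, had a median subunit deviation of -0.05. BM LT-HSC c, an array of narrow spread, had the highest neutrophil, B cell, macrophage and megakaryocyte means and a median subunit deviation of -0.16.

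The promoters of the subunit genes were searched for the cores bound by factors known to act on respiratory genes: NRF1 (GCATGCGC), the ETS factor GABPA (CCGGAAG) and YY1 (AAGATGG), on both strands of the 300 bases around each start in the RefSeq table of GRCm38.p6. A window was found for 69 of the 84. The NRF1 core was in 10 of these (14.5%, against 4.10% of 15691 tested genes with a window), the GABPA core in 17 (24.6%, against 13.2%) and the YY1 core in 11 (15.9%, against 7.29%). One or more of the 3 were in 32 (46.4%, against 22.3%). The cores were not counted among the bright genes. Between the 25 genes that were lower in BM and the 44 that did not pass, the shares were 16% and 13.6% for NRF1, 24% and 25% for GABPA and 20% and 13.6% for YY1. A match is a run of letters and not a measured site. For each core, the window of the gene with the largest difference among those lower in BM that hold it is shown, with the core in capitals. They are Uqcrc1 (chr9:108936398-108936697, plus strand; the NRF1 core on both strands, overlapping), Sdhd (chr9:50603800-50604099, minus strand; the GABPA core on the opposite strand) and Ndufb8 (chr19:44555393-44555692, minus strand; the YY1 core on the gene's strand), each written 5′ to 3′ on the gene's strand.
Uqcrc1: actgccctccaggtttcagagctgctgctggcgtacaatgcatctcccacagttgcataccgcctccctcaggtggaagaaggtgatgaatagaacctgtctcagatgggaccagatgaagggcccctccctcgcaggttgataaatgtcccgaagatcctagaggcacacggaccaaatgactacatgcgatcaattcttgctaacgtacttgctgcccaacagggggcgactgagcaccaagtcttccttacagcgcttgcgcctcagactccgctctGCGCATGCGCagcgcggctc
Sdhd: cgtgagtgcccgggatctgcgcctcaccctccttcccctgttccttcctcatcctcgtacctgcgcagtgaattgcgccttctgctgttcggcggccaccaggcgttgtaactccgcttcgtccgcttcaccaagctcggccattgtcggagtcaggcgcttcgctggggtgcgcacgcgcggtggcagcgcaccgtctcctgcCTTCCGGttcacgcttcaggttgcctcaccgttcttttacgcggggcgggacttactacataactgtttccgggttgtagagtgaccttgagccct
Ndufb8: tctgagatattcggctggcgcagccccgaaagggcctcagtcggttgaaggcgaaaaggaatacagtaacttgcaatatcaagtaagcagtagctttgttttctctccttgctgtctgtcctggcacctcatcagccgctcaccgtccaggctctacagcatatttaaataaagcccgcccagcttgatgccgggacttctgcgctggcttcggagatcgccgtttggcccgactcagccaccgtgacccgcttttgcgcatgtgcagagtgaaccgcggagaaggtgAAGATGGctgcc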

How the data were processed

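Total RNA of sorted cells was hybridised to 18 arrays. Per the labels' protocols, 2 ng of RNA went into labelling, with 10 cycles of PCR. The authors deposited log2 signals, 1 per probe set and array, for which the submitters' processing notes name R and oligo. How background was corrected and arrays normalized is not given in the sources. Arrays at the same rank differed by a median of 0.25 and by up to 0.34, so the values are not fully quantile normalized, and they were used as deposited. The array medians lie within 7.68 to 7.78, one common scale, so that only changes relative to other genes can be seen.

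Arrays were grouped by title and source name. Of 22203 probe sets, the 19572 with 1 symbol were used and the brightest per symbol was kept, leaving 19505 genes; all 84 subunit genes matched the RefSeq table of GRCm38.p6, used for names and promoters. A linear model of 6 group means over the 18 arrays was fitted in R 4.3.3 by limma 3.58.1 (lmFit, eBayes), with Benjamini-Hochberg adjustment over all genes and a threshold of 0.05. The fit was tested on simulated data. Precision is limited by the number of arrays: the median SE was 0.10 for the average over populations, 0.17 for 3 arrays against 3 and 0.24 for the interaction contrast.

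The members, lists, motifs and tests were chosen with earlier results of these data known. Genes named are, per complex, up to 5 called members with the largest difference in the average, up to 2 in other comparisons, all of complex II and of the isoform list, and up to 3 per other list, with every member of a count of 5 or fewer, except in counts under alternatives. Alternatives left out each array, the arrays of narrow spread or those described as sgEzh2, or changed the normalization, the filter on dim genes, the probe set rule, the weights, the eBayes settings, the groups fitted or a block by letter. A further 3 alternatives (ST-HSC left out of the average, BM ST-HSC b and c left out, cyclic loess) and the counts of lists and of bright genes under alternatives were chosen after seeing the data.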

Additional observations from a re-analysis of the deposited data

How the results depend on the processing

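No call reversed under any alternative. Values that did not pass and medians near 0 did change sign: over the alternatives the average difference ran from -0.11 to 0.30 for Cox8c and from -0.18 to 0.03 for Cox6b2. Repeated quantile normalization put the median of complex I in LT-HSC at 0.01 (-0.07 as reported). Without the narrow arrays the median of mitochondrial DNA maintenance was 0.04 (-0.01) and that of the ATP synthase inhibitor list 0.03 (-0.06). All 29 called differences of the average over populations stayed below 0 in the 32 alternatives, and 5 were called in each: Ndufs1, Sdhd, Uqcrc1, Cox4i2 and Atp5c1. Leaving out 1 array gave counts of 21 to 41 subunit genes for the average, 0 to 2 in LT-HSC, 5 to 48 in ST-HSC and 1 to 2 in MPP for BM against FL, 0 to 1 in BM and 1 to 3 in FL for MPP against LT-HSC, 0 to 6 in BM for ST-HSC against LT-HSC, 0 to 32 in BM and 0 to 1 in FL for MPP against ST-HSC, and 0 to 3 for the interaction F test. The shares of all genes called in the fits that left out 1 array are not given. A shift of these counts thus cannot be told apart from one over all genes.

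Array weights gave 47 for the average, 56 in ST-HSC and 13 in MPP, with 2 for MPP against LT-HSC in BM, 33 for ST-HSC against LT-HSC in BM, 49 and 2 for MPP against ST-HSC in BM and FL, and 19 for the F test. Calls rose over all genes as well with array weights. In the average 22.1% of all genes and 42.1% of the bright genes were then lower in BM, and in ST-HSC 24.5% and 45%. A trend with robust estimation gave 4 in MPP, and 18 and 1 for MPP against ST-HSC in BM and FL. Fitting only the groups compared gave 12 in ST-HSC, 9 in MPP, 0 for MPP against LT-HSC in BM, and 1 and 1 for MPP against ST-HSC in BM and FL. Without the arrays described as sgEzh2 the counts were 6 for the average, 3 in ST-HSC, 1 in MPP, 0 and 0 for MPP against LT-HSC in BM and FL, and 0 for MPP against ST-HSC in BM. This removed 4 of 9 FL arrays and left FL MPP with 1, so fewer arrays stood behind each test. Lower in BM ST-HSC than in FL ST-HSC were then 3.57% of the subunit genes, against 9.23% of the bright genes and 5.29% of all genes.

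Without the 4 arrays of narrow spread the counts were 13 for the average, 1 in LT-HSC, 0 in ST-HSC, 4 in MPP, and 1 and 2 for MPP against ST-HSC in BM and FL. With the interquartile range as a covariate they were 3, 6 and 5 in the 3 populations, and 3 and 1 for MPP against ST-HSC. With this covariate 7.14% of the subunit genes were lower in BM in ST-HSC, against 7.28% of the bright genes and 4.54% of all genes. Repeated quantile normalization gave 1 in LT-HSC, 20 in ST-HSC, and 4 and 1 for MPP against ST-HSC. Cyclic loess gave 14 for the average, 14 in ST-HSC, 0 for MPP against LT-HSC in BM, 1 for ST-HSC against LT-HSC in BM, and 4 and 1 for MPP against ST-HSC. In ST-HSC 21.4% of the subunit genes, 13.7% of the bright genes and 9.33% of all genes were lower in BM after repeated quantile normalization. After cyclic loess these shares were 14.3%, 11.9% and 8.92%. Without BM ST-HSC b and c the counts were 9 for the average, 2 in LT-HSC, 0 in ST-HSC, and 0 and 1 for MPP against ST-HSC. The average over LT-HSC and MPP alone gave 7. Median centring gave 1 in LT-HSC, and leaving out the dimmest 30% of genes gave 1 for MPP against ST-HSC in FL. The cause of these shifts was not tested.

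Whether the replicate letters pair the arrays could not be decided. Deviations of arrays with the same letter correlated at -0.46 to 0.42 within BM (median 0.10) and -0.12 to 0.10 within FL (-0.04). Those with different letters correlated at -0.54 to 0.55 within BM (median -0.08) and -0.15 to 0.12 within FL (0.03). These ranges overlap, and the highest BM value was between BM ST-HSC b and BM LT-HSC c, both of narrow spread. With the letter as a replicate block the average had 32 called, LT-HSC 2 and MPP against ST-HSC in FL 1; as a random replicate block, with a correlation of 0.04, the average had 28 and MPP against ST-HSC in FL 1.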
